A study of Mus musculus with 18 samples.

Results

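The 10 genes Nr4a1, Nr4a2, Nr4a3, Egr1, Egr2, Egr3, Ier2, Ier3, Dusp1 and Dusp2 are immediate early genes that T cells transcribe after a signal through the T cell receptor. They were taken by name, and all 10 are among the 35869 entries of the RNA table. Their levels were compared between regulatory T cells (Tregs) with a deletion of the chromatin remodeler CHD8 (Chd8-/-) and Tregs of WT littermates, with 2 mice and 2 RNA libraries per genotype. The cells were YFP+ cells sorted from splenic CD4+ T cells of mice a few weeks old. Each genotype had 1 male and 1 female, and the labels do not tie a library to a sex. The genotype label of the Chd8-/- samples is CHD8Flox/FloxFoxp3YFP-Cre, in which a YFP and Cre fusion expressed from the Foxp3 locus deletes the floxed gene in Tregs. The WT samples carry the label CHD8flox/floxFoxp3YFP-Cre/+, whereas the study describes its WT mice as without floxed alleles, and the W and K of the sample titles were used for the groups. A label of Poly IC injection is shared by all samples of both genotypes.

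Immediate early genes respond within minutes of a stimulus, because the proteins that switch them on are already in the cell and need only be modified. In T cells, calcium and MAP kinase signals from the T cell receptor reach factors such as SRF with its ETS partners, CREB, MEF2 and NFAT, which bind short elements near the gene starts. The NR4A proteins are nuclear receptors that act without a known natural hormone, and together with the EGR zinc finger factors they translate the strength of the receptor signal into gene expression. In Tregs, NR4A factors are known to sustain Foxp3 and the Treg program, and EGR2 and EGR3 are known to restrain T cell activation. DUSP1 and DUSP2 are nuclear phosphatases that inactivate MAP kinases and so end the signal.

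The elements that carry such signals can be read in the promoters. RefSeq promoter sequences (GRCm38.p6, 300 bases each, 250 before and 50 after a transcript start) were matched by symbol for 7 of the 10 genes, with 11 sequences since Egr2 has several annotated starts. Sequences for Egr1, Egr3 and Ier2 were not matched. The following windows of 30 bases are written 5′ to 3′ on the strand of the gene, and capitals mark the element. They are shown because Dusp1 held the full cAMP response element bound by CREB, Egr2 held CArG boxes bound by SRF, and Nr4a1 and Nr4a3 held a shorter form of the cAMP response element.
Dusp1, cAMP response element, minus strand, chr17:26508597-26508626: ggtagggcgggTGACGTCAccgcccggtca
Egr2, CArG box of one start, plus strand, chr10:67537484-67537513: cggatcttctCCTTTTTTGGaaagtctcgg
Egr2, CArG box of another start, plus strand, chr10:67537787-67537816: gttcctcagtCCATATATGGgcagcgacgt
Nr4a1, short element on the opposite strand, plus strand, chr15:101266794-101266823: cccctctccatgCGTCAcggagcgcttaag
Nr4a3, short element, plus strand, chr4:48045146-48045175: ctgtggcataaaTGACGtgccgagagagcg

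Both strands of each promoter were searched. The full element TGACGTCA was found in 1 of the 11 sequences, that of Dusp1, and in 1.79% of all 32851 promoters in the table. CArG boxes were found in 4 of the 11 sequences, all of Egr2 and 3 of them with the same box, and in 1.63% of all promoters. The short element TGACG, which lies within the full one, was found in 8 of the 11 sequences and in 20.8% of all promoters. These sequences belonged to 6 of the 7 genes matched (Nr4a1, Nr4a2, Nr4a3, Egr2, Dusp1 and Dusp2). In Dusp2 the short element lay just after the transcript start of the sequence, and in the other 5 genes before it. For Nr4a1, Nr4a3 and the Egr2 sequences that held an element, the transcript start lies inside the span of the gene given below, which begins further upstream. The NR4A element AAAGGTCA and the EGR element GCGTGGGCG were found in 0 of the 11 sequences, and in 1.51% and 0.612% of all promoters. These matches describe letters within a short window and say nothing of binding in Tregs.

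Values are TPM, a level scaled by gene length and library total, and are listed to the nearest 0.1. Chd8 itself was listed at 14.9 and 11.4 TPM in the Chd8-/- libraries 1 and 2 and at 24.7 and 27.6 TPM in the WT libraries 1 and 2 (log2 fold change −0.95 ± 0.29 SE, limma adjusted p = 0.455), so that transcript counted on the gene remained. Foxp3, which defines Tregs, lay between 202.8 and 232.1 TPM in the 4 libraries. Chd8-/- library 2 stood apart in the summed markers of other cells, which a few genes of each list carried. Its 9 myeloid markers summed to 1443.5 TPM, of which Lyz2 gave 1360.3, against 26 TPM in Chd8-/- library 1 and 79.6 to 107.1 TPM in WT. Its 4 erythroid markers summed to 1184.1 TPM, against 8.7 TPM in Chd8-/- library 1 and 197.4 to 216.6 TPM in WT. Hba-a1 gave 552.6 and Hbb-bs 579.9 TPM of this. The 7 B cell markers of Chd8-/- library 2 summed to 408.3 TPM, against 110.5 to 125.3 TPM in the others. Cd74 gave 268.5 TPM of this, and Ebf1 was at 0.2 TPM. Not every marker followed. In Chd8-/- library 2, Alas2 (erythroid, 7.5 TPM) and Cd79b (B cell, 8.9 TPM) were the lowest of the 4 libraries. Adgre1 (myeloid) was at 4.3 TPM there, below both WT libraries. S100a8 (myeloid) was higher in both Chd8-/- libraries, at 5.3 and 16.5 TPM, and at 0 TPM in both WT libraries. Its log2 fold change was 3.39 (adjusted p = 0.402 from limma), and 2.66 without Chd8-/- library 2. The 7 markers of CD8 T cells and NK cells summed to 57.8 to 96.1 TPM in all 4 libraries, and Ncr1 was listed at 0 in 3 of them. The part of these cells in the values below was not tested, so each difference of the 10 genes is also given without Chd8-/- library 2.

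None of the 10 immediate early genes passed the test for a difference between the genotypes. In limma on log2(TPM + 1), fitted over 15240 genes, 0 of 10 reached an adjusted p-value of 0.05, as did 0% of all genes tested, and the adjusted p-values of the 10 lay between 0.603 and 0.897. At an unadjusted p-value of 0.05 the count was also 0 of 10, against 3.9% of all genes higher and 6.3% lower in Chd8-/- Tregs. The log2 fold change was above 0 in 4 genes and below 0 in 6, where 38.5% and 61.5% of all genes lay above and below 0. The median of the 10 was −0.28, beside a median of −0.15 over all genes tested. At a log2 fold change of 1, 0 of 10 genes were higher, where 5.12% of all genes were, and 1 of 10, Ier3, was lower, where 11.6% of all genes were. The excess of lower genes depended on the scaling: the 781 higher and 1768 lower genes became 1146 and 1231 after quantile normalization and 1056 and 1376 with the median of all genes set to 0. In 3 of the 10, both Chd8-/- libraries exceeded both WT libraries, against 14.8% of all genes, and in 4 of the 10 both were below, against 27.8%. In RNA from bulk cells, fewer cells that express a gene and less RNA per cell cannot be told apart.

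**Figure D1:**
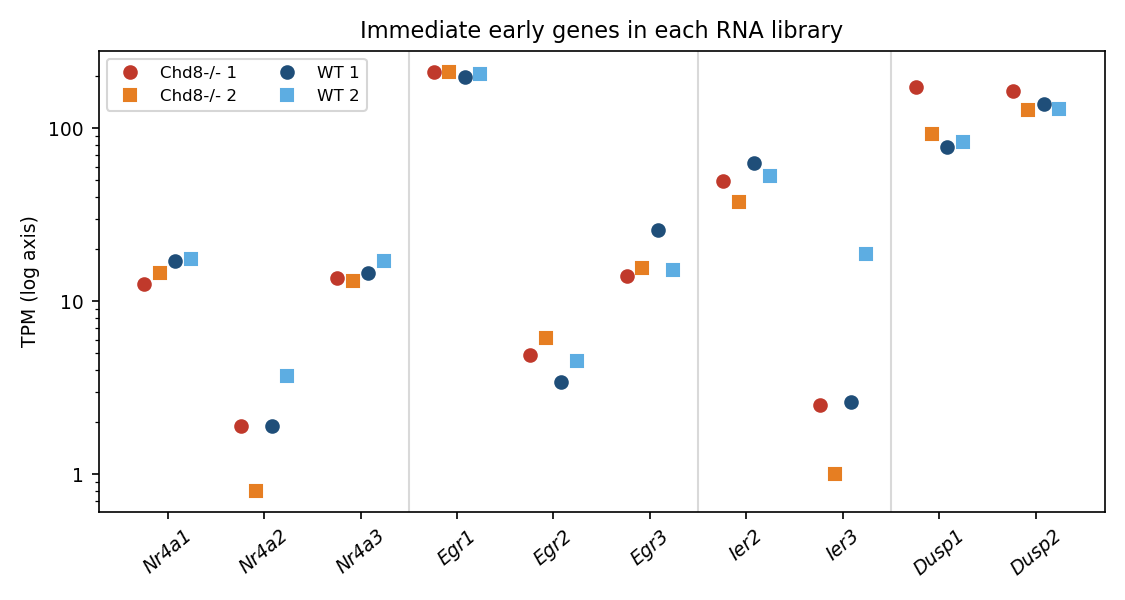
TPM on a log axis of each immediate early gene in the 2 Chd8-/- libraries (red circle, orange square) and the 2 WT libraries (dark blue circle, light blue square). Egr1, Dusp1 and Dusp2 sit near or above 100 TPM, the NR4A genes and Egr3 near or below 20, and single libraries stand off for Ier3 (WT library 2, 18.8 TPM) and Dusp1 (Chd8-/- library 1, 173.7 TPM).

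The NR4A receptors were low to moderate in level with estimates below 0 in Chd8-/- Tregs and 95% intervals that held 0. Nr4a1 (Nur77, widely used as a reporter of T cell receptor signals), at chr15:101253902-101274795 (GRCm38, plus strand), had 12.6 and 14.6 TPM in Chd8-/- Tregs, compared with 17.1 and 17.5 TPM in WT. Both Chd8-/- libraries were thus below both WT libraries, by 2.5 TPM at the nearest. Its log2 fold change was −0.33 (standard error 0.28, 95% interval −1.09 to 0.43, n = 2 per genotype, limma adjusted p = 0.722).

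Nr4a3 (NOR1), at chr4:48045078-48086447 (plus strand), had 13.6 and 13.0 TPM in Chd8-/- Tregs, compared with 14.5 and 17.0 TPM in WT. The groups did not overlap, and the nearest libraries were 0.9 TPM apart. For Nr4a3 the log2 fold change came to −0.22 (standard error 0.29, 95% interval −0.999 to 0.551, adjusted p = 0.813 from limma). The ratio of Nr4a1 to Nr4a3 within a library, which does not depend on the library total, was 0.926 and 1.12 in Chd8-/- and 1.18 and 1.03 in WT Tregs, and the groups overlapped.

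Nr4a2 (NURR1), at chr2:57106830-57124003 (minus strand), was the lowest of the 10 genes, with 1.9 and 0.8 TPM in Chd8-/- and 1.9 and 3.7 TPM in WT Tregs. Chd8-/- library 1 and WT library 1 were equal. The log2 fold change was −0.69 (standard error 0.52, 95% interval −2.09 to 0.70, adjusted p = 0.688 from limma), and it depended on the value added before the logarithm, with −1.04 when 0.1 TPM and −0.29 when 5 TPM were added. A predicted gene, LOC105244150, overlaps its start and was listed at 0.2 to 2.1 TPM, and since no strand setting is given, reads of the 2 genes may not be separated. Summed over the 3 NR4A genes, the level was 28.1 and 28.4 TPM in Chd8-/- and 33.5 and 38.2 TPM in WT Tregs. Without Chd8-/- library 2 the log2 fold changes were −0.43 for Nr4a1, −0.35 for Nr4a2 and −0.19 for Nr4a3. Without Chd8-/- library 1 or WT library 1, Nr4a2 was at −1.04 in either case, and without WT library 2 it was at −0.34 and Nr4a3 at −0.12. Under quantile normalization the estimates were −0.16 for Nr4a1, −0.33 for Nr4a2 and −0.054 for Nr4a3, and with the median of all genes set to 0 they were −0.18, −0.54 and −0.074.

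Among the EGR factors, Egr1 was the most abundant of the 10 genes and the most even. Egr1, at chr18:34861207-34864956 (plus strand), had 211.8 and 212.2 TPM in Chd8-/- Tregs, compared with 197 and 206.9 TPM in WT. The Chd8-/- libraries lay above the WT libraries by 4.9 TPM at the nearest. Egr1 had a log2 fold change of 0.07 (standard error 0.16, 95% interval −0.36 to 0.50, adjusted p = 0.897 from limma), or a fold of 1.05 with an interval from 0.779 to 1.41. Quantile normalization turned it to −0.020.

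Egr2, which restrains T cell activation, lies at chr10:67534469-67542188 (plus strand) and had a low level of 4.9 and 6.1 TPM in Chd8-/- and 3.4 and 4.5 TPM in WT Tregs. The groups did not overlap and were 0.4 TPM apart at the nearest. Its log2 fold change was 0.40 (standard error 0.39, 95% interval −0.65 to 1.44, adjusted p = 0.757 from limma). A predicted gene, Gm32255, overlaps Egr2 and was listed at no more than 0.3 TPM.

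Egr3, a close relative of Egr2, lies at chr14:70077317-70082613 (plus strand) and had 14.0 and 15.6 TPM in Chd8-/- Tregs, compared with 25.9 and 15.2 TPM in WT. WT library 1 was high, and WT library 2 lay between the Chd8-/- libraries. Egr3 had a log2 fold change of −0.40 (standard error 0.37, 95% interval −1.39 to 0.58, adjusted p = 0.736 from limma), and without WT library 1 it was −0.04. Without Chd8-/- library 2 the log2 fold changes were 0.07 for Egr1, 0.26 for Egr2 and −0.48 for Egr3. Egr2 and Egr3 therefore had estimates of opposite sign, and both 95% intervals held 0.

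The IER genes were listed lower in both Chd8-/- libraries than in either WT library, but neither passed the test. Ier2, a small nuclear protein of the early response, lies at chr8:84661331-84662852 (minus strand) and had 49.7 and 37.6 TPM in Chd8-/- Tregs, compared with 63.2 and 53.1 TPM in WT. The nearest libraries were 3.4 TPM apart. Ier2 had a log2 fold change of −0.41 (standard error 0.26, 95% interval −1.10 to 0.28, adjusted p = 0.635 from limma), and −0.22 without Chd8-/- library 2.

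Ier3 (IEX-1), a regulator of cell survival and target of NF-kappaB, lies at chr17:35821713-35822911 (plus strand). It had 2.5 and 1.0 TPM in Chd8-/- Tregs, compared with 2.6 and 18.8 TPM in WT. WT library 2 stood alone, 7.23 times above WT library 1, while WT library 1 was a single rounding step of 0.1 TPM above Chd8-/- library 1. Ier3 had a log2 fold change of −1.67 (standard error 0.95, 95% interval −4.24 to 0.90, adjusted p = 0.610 from limma), the largest in size of the 10, and without WT library 2 it was −0.44. Without Chd8-/- library 2 it was −1.27. Of all genes tested, 2.22% had a larger difference between the WT libraries than Ier3.

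The DUSP phosphatases were abundant, with Dusp1 high in 1 Chd8-/- library and Dusp2 even. Dusp1 (MKP-1), at chr17:26505591-26508472 (minus strand), had 173.7 and 92.0 TPM in Chd8-/- Tregs, compared with 77.9 and 83.6 TPM in WT. Chd8-/- library 1 was high, and Chd8-/- library 2 was 8.4 TPM above the nearest WT library. Dusp1 had a log2 fold change of 0.64 (standard error 0.36, 95% interval −0.320 to 1.603, adjusted p = 0.603 from limma). It was 1.10 without Chd8-/- library 2 and 0.19 without Chd8-/- library 1, so that the size of the difference turned on library 1. That library had the lowest myeloid and erythroid marker sums of the 4, although the myeloid marker S100a8 was at 5.3 TPM there and at 0 TPM in both WT libraries. Its sum for CD8 T cells and NK cells was the highest, at 96.1 TPM. Whether other cells had a part in its Dusp1 value was not tested.

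Dusp2 (PAC-1), at chr2:127336159-127338377 (plus strand), had 163.8 and 128 TPM in Chd8-/- Tregs, compared with 138.6 and 130 TPM in WT, with the groups overlapping. Its log2 fold change was 0.11 (standard error 0.21, 95% interval −0.45 to 0.67, adjusted p = 0.878 from limma), 0.29 without Chd8-/- library 2 and −0.068 without Chd8-/- library 1. Within a library, the ratio of Dusp1 to Dusp2 was 1.06 and 0.719 in Chd8-/- and 0.562 and 0.643 in WT Tregs. The ratio did not overlap between the groups, and the 2 Chd8-/- libraries were further apart from each other than Chd8-/- library 2 was from WT library 2.

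**Figure D2:**
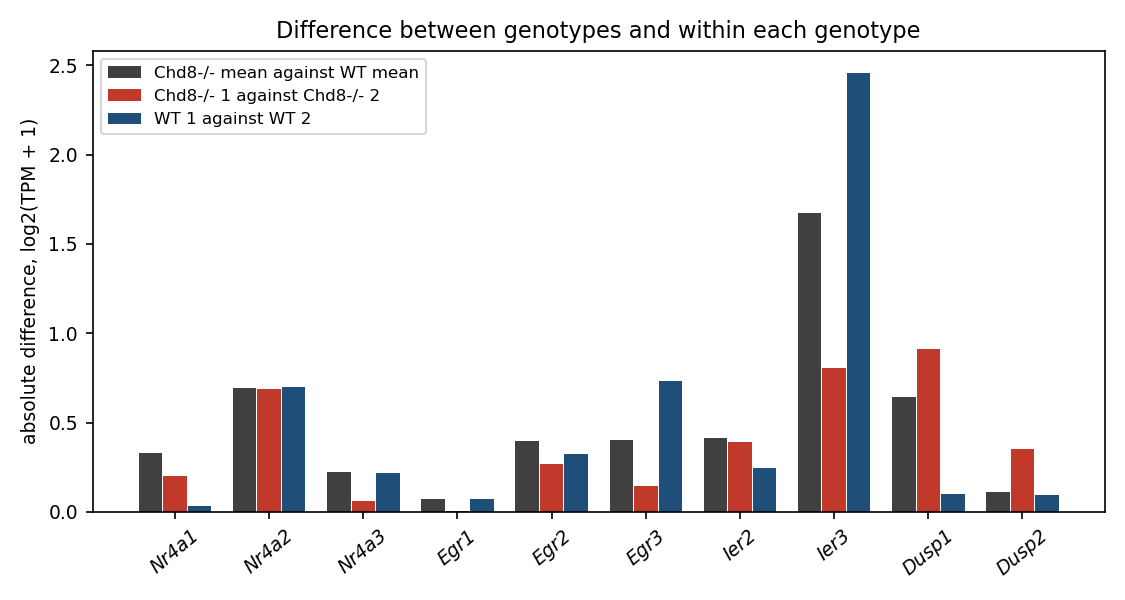
Absolute differences in log2(TPM + 1) for each immediate early gene, between the genotype means (dark grey), between the 2 Chd8-/- libraries (red) and between the 2 WT libraries (blue). The larger difference within a genotype exceeds the difference between the genotypes for 6 genes. It does so clearly for Ier3 (2.46 against 1.67), Egr3 (0.73 against 0.40), Dusp1 (0.91 against 0.64) and Dusp2 (0.35 against 0.11), and by under 0.01 for Nr4a2 and Egr1. A difference within a genotype is between single libraries and the larger of 2 is taken, while that between genotypes is between means. Such an excess is thus likely without unusual spread, and its share over all genes was not counted.

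The precision differed between the genes, with standard errors from 0.16 for Egr1 to 0.95 for Ier3. The 95% interval lay within a log2 fold change of 1 in either direction for 3 genes, Egr1, Dusp2 and Nr4a3, and reached past 1 for the other 7. It held 0 in all 10. For Egr1 and Dusp2 a change of 2 times or more was therefore outside the interval of this comparison, and for Nr4a3 the lower bound rounded to that change. For the remaining genes a change of that size was not excluded by the interval, so the p-values do not show equal levels. Over all genes tested, the median absolute log2 difference was 0.521 within the Chd8-/- pair and 0.322 within the WT pair.

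**Figure D3:**
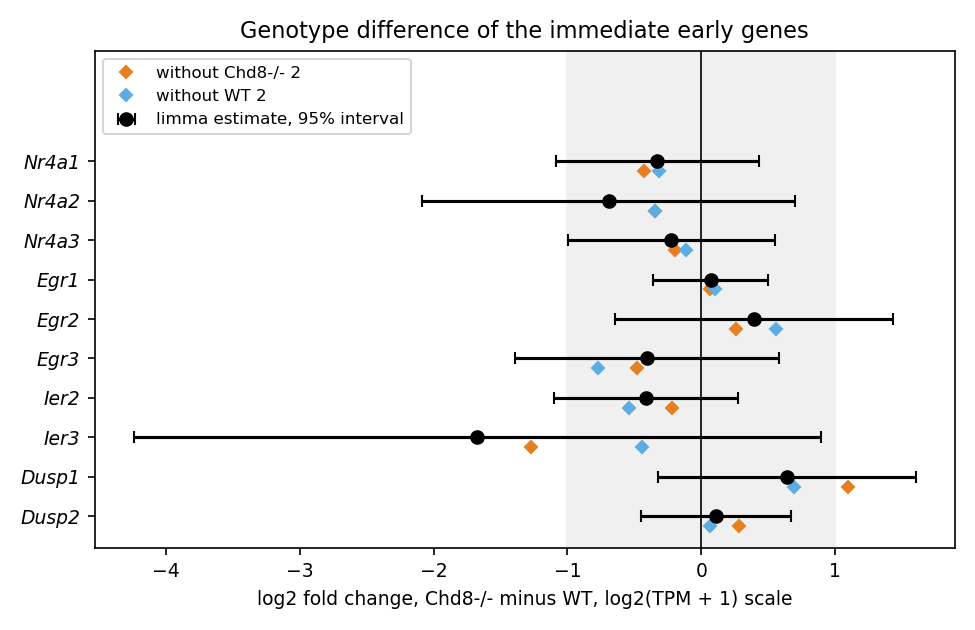
Log2 fold change of each immediate early gene (Chd8-/- minus WT, log2(TPM + 1) scale) with its 95% interval from limma (black), and the estimate without Chd8-/- library 2 (orange) or without WT library 2 (light blue). The grey band spans −1 to 1, every interval crosses 0, and Ier3 moves from −1.67 to −0.44 without WT library 2.

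By level per length, averaged over the 4 libraries, the order was Egr1 at 207 TPM, Dusp2 at 140.1, Dusp1 at 106.8, Ier2 at 50.9, Egr3 at 17.7, Nr4a1 at 15.4, Nr4a3 at 14.5, Ier3 at 6.22, Egr2 at 4.72 and Nr4a2 at 2.08. The ranges over the libraries did not overlap between Egr1 and Dusp2, between Dusp1 and Ier2 or between Ier2 and Egr3. The other neighbours in the order overlapped. Egr1 was above 95.7% of the genes tested in mean level, while Nr4a2 was above 10.7%. Egr1, Dusp1 and Dusp2 made up 84.7% and 83.0% of the summed TPM of the 10 genes in Chd8-/- and 76.3% and 76.4% in WT Tregs. That sum was 648.5 and 520.9 TPM in Chd8-/- and 542.1 and 550.3 TPM in WT Tregs, and the groups overlapped.

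Among other immediate early genes, no gene passed the test either. Of 33 listed, 28 passed the filter on low values, 15 were above 0 and 13 below 0 in log2 fold change, and the median was 0.03. Over all genes, 38.5% were above 0 and 61.5% below 0. None of the 28 passed an adjusted p-value of 0.05 in limma (0 genes), and 2 higher and 2 lower genes had an unadjusted p-value under 0.05, beside 3.9% and 6.3% of all genes. Rgs1, an inhibitor of G protein signals and the gene with the smallest p-value of the 28, had 1091.7 and 838.1 TPM in Chd8-/- Tregs, compared with 480.6 and 554.4 TPM in WT (log2 fold change 0.89 ± 0.20 SE, limma adjusted p = 0.410), and it was chosen after its values were seen. Jun, the AP-1 subunit, had 20.1 and 29.3 TPM in Chd8-/- Tregs, compared with 4.7 and 10.4 TPM in WT (log2 fold change 1.65 ± 0.48 SE, limma adjusted p = 0.446). Fos, its partner, overlapped between the groups at 6.2 and 15.1 TPM in Chd8-/- and 13.1 and 7.2 TPM in WT Tregs. Listed lower in Chd8-/- Tregs were Rgs2, a relative of Rgs1, at 14.1 and 10.0 against 25.6 and 32.3 TPM (log2 fold change −1.21, adjusted p = 0.433 from limma), and Nfkbid, a nuclear IκB protein, at 6.7 and 6.4 against 19.1 and 13.3 TPM (log2 fold change −1.17, adjusted p = 0.451 from limma). Without Chd8-/- library 2 the values were 1.39 for Jun, −0.98 for Rgs2 and −1.14 for Nfkbid.

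The kinases and factors upstream of these genes had estimates mostly below 0. Of 27 listed, 24 were tested. Of these, 20 had a log2 fold change below 0 and 4 above 0, with a median of −0.24 beside −0.15 over all genes, and the Chd8-/- pair was below the WT pair in 11. Over all genes, 61.5% were below 0 and 27.8% had the Chd8-/- pair below the WT pair. None reached a log2 fold change of 1 (0 genes), where 5.12% of all genes were higher and 11.6% lower by that much. None reached an adjusted p-value of 0.05 in limma (0 genes). Beside 6.3% of all genes, 1 gene of this list was lower with an unadjusted p-value under 0.05. That gene was Mkl1, which encodes the SRF coactivator MRTF-A, at 34.4 and 31.8 TPM in Chd8-/- and 48.8 and 53.6 TPM in WT (log2 fold change −0.61 ± 0.22 SE, limma adjusted p = 0.481), and it is named after its values were seen. Srf itself was listed at 17.2 and 15.2 against 17.6 and 30 TPM. Of 11 other MAP kinase phosphatases and inhibitors tested, 4 lay above and 7 below 0, with a median of −0.18. Dusp4, Dusp5 and Dusp6, which like Dusp1 and Dusp2 act on MAP kinases, had log2 fold changes of −0.26, −0.19 and 0.19.

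Genes known as partners or targets of the EGR and NR4A factors in T cells lay on both sides of 0. Of the 14 EGR genes, 6 lay above and 8 below 0, with a median of −0.06, beside 38.5% and 61.5% of all genes. In limma, 2 higher and 0 lower genes had an unadjusted p-value under 0.05, beside 3.9% and 6.3% of all genes. The Chd8-/- pair exceeded the WT pair in 3 and lay below it in 4, beside 14.8% and 27.8% of all genes. The corepressors Nab1 and Nab2, which bind EGR factors, were listed at 52.6 and 52.3 against 30.2 and 35.7 TPM and at 83.5 and 58.0 against 55.6 and 96.5 TPM, so that Nab1 did not overlap and Nab2 did (log2 fold changes 0.66 and −0.07, adjusted p = 0.471 and 0.962 from limma). Ndrg1, a stress response gene, was listed higher at 17.3 and 29.2 against 14.1 and 4.7 TPM (log2 fold change 1.34), and Tbx21, which encodes the Th1 factor T-bet, was listed lower at 2.7 and 1.9 against 12.9 and 5.0 TPM (log2 fold change −1.48, adjusted p = 0.493 from limma). Ndrg1 had an adjusted p-value of 0.551 from limma, and its log2 fold change was 0.64 without WT library 2. Tbx21 had a log2 fold change of −0.87 without WT library 1.

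Of 13 NR4A genes tested, 7 lay above and 6 below 0, with a median of 0.06, beside 38.5% and 61.5% of all genes. In limma, 3 higher and 0 lower genes had an unadjusted p-value under 0.05, beside 3.9% and 6.3% of all genes. The Chd8-/- pair exceeded the WT pair in 4 and lay below it in 2, beside 14.8% and 27.8% of all genes. Foxp3 had a log2 fold change of 0.06 and Ikzf2, the Treg factor Helios, of −0.07. Havcr2, which encodes the inhibitory receptor TIM-3, had 38.7 and 73.8 TPM in Chd8-/- Tregs, compared with 5.9 and 6.7 TPM in WT (log2 fold change 2.90 ± 0.41 SE, limma adjusted p = 0.373). Myeloid cells are known to express Havcr2 too, and their part in this difference was not tested. Without Chd8-/- library 2 the log2 fold change of Havcr2 was 2.45. Ccr8, a chemokine receptor of activated Tregs, was listed at 101.1 and 86.2 against 26.8 and 49.4 TPM (log2 fold change 1.33 ± 0.36 SE, limma adjusted p = 0.434, and 1.45 without Chd8-/- library 2).

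Genes that accompany T cell activation had estimates mostly above 0. Of 7 tested, 6 lay above 0, with a median of 0.52, and in 5 the Chd8-/- pair exceeded the WT pair. None passed an adjusted p-value of 0.05 in limma (0 genes), and 3 higher genes had an unadjusted p-value under 0.05. Over all genes, 38.5% were above 0, 14.8% had the Chd8-/- pair above the WT pair and 3.9% were higher at that p-value. Icos, a costimulatory receptor, had 254.0 and 212.5 TPM in Chd8-/- Tregs, compared with 110 and 110.3 TPM in WT (log2 fold change 1.07 ± 0.19 SE, limma adjusted p = 0.402). Batf, an AP-1 family factor of effector Tregs, was listed at 502.4 and 784.6 against 231.1 and 207.1 TPM (log2 fold change 1.52 ± 0.27 SE, limma adjusted p = 0.402). Without Chd8-/- library 2 the values were 1.198 for Icos and 1.196 for Batf, and without Chd8-/- library 1 Icos was at 0.94. Cd69, itself an early activation gene, overlapped between the groups at 106.2 and 51.2 against 71.0 and 69.1 TPM. The list was chosen with earlier results of these data known, so its counts beside those of all genes are a description. The paper had also reported raised CD44 and ICOS on Chd8-/- Tregs by flow cytometry. A difference between the lists was not tested.

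**Figure D4:**
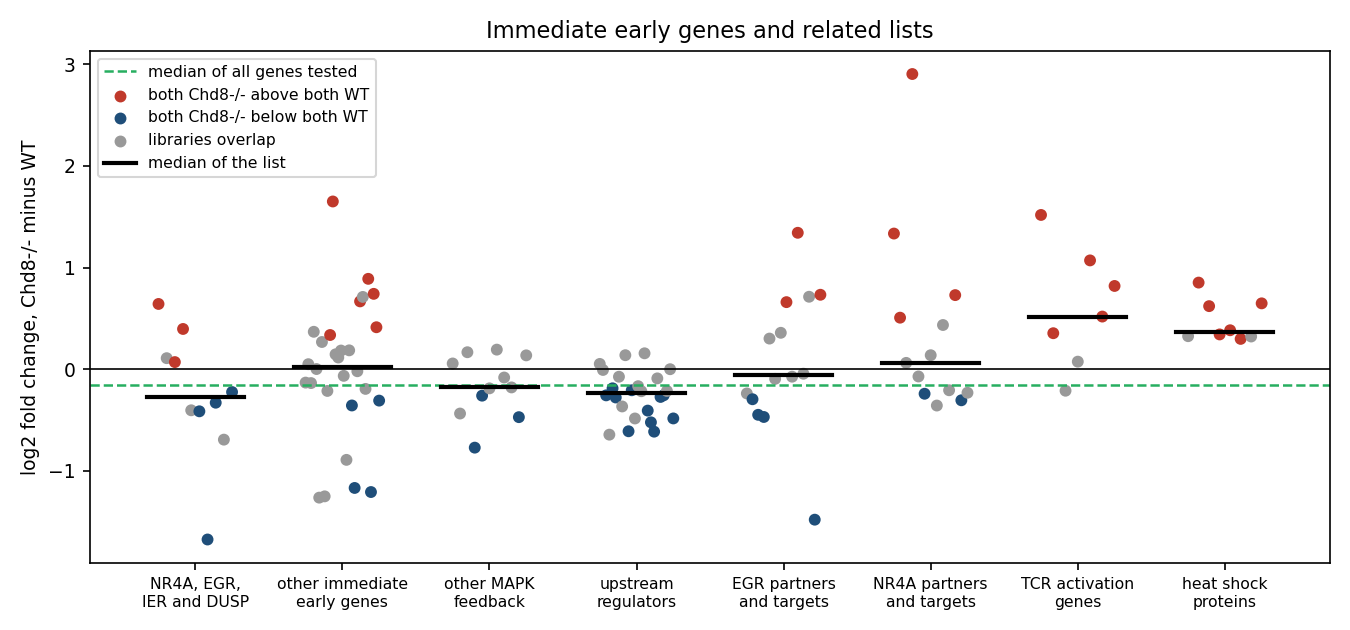
Log2 fold change (Chd8-/- minus WT, log2(TPM + 1) scale) of each tested gene in the 8 lists, with the median of each list (black bar) and of all genes tested (green dashed line, −0.15). Red and blue points are genes whose Chd8-/- libraries both lie above or both below the WT libraries, and grey points overlap. The list of activation genes has its median at 0.52 and the immediate early members at −0.28. The lists were chosen with earlier results of these data known, and differences between them were not tested.

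Genes with the most similar pattern over the 4 libraries were sought by the Euclidean distance between centred log2(TPM + 1) values. Nearest to the mean of the NR4A genes were Vps52, Atad2b and Gm36220, at distances of 0.028 to 0.043, and 329 genes lay within 0.2. Nearest to the mean of the EGR genes were Coa5, Ifi27 and Zfyve26, with 389 genes within 0.2. That mean pools Egr2 and Egr3, whose estimates had opposite signs, so these genes need not resemble either. For the DUSP genes they were Cct5, Psenen and BC003965, with 102 genes within 0.2. For the IER genes, 7 genes lay within 0.2, the nearest being Gm28497 at 1.1 and 0.5 TPM in Chd8-/- and 1.6 and 4.8 TPM in WT Tregs. With 4 libraries such nearness is a description of these values only.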

How the data were processed

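RNA-seq values of 4 libraries were used, 2 per genotype. According to the methods and the submitters' processing notes, reads were trimmed and mapped to the mm10 genome by the authors using STAR 2.6.1e, who then removed duplicates, counted reads on RefSeq genes with featureCounts 1.6.2 and deposited TPM rounded to 0.1. TPM keep no read number, so the depth is unknown and no counting interval is given. The protocol names both a 10X assay and an Illumina kit, so which one made these libraries is unsure. Of 35869 entries, 4 under repeated names were left out. Genes with at least 1 TPM in 2 or more libraries were compared as log2(TPM + 1) with limma 3.58.1 in R 4.3.3 (a mean-variance trend in eBayes, two-sided p-values, Benjamini-Hochberg over 15240 genes), so that fold changes of low genes are understated. The fit was tested on simulated data. It called 5 of 67 genes with a simulated log2 fold change of 1 and 34 of 67 with one of 2. At a log2 fold change of 4 it called 58 of 66, and 1 unchanged gene was called. Most genes with a simulated log2 fold change of 1 were thus missed. A gene that did not pass the test may therefore still differ by that much.

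All 10 immediate early genes passed the filter, and every one is reported. Of the other lists, genes with a log2 fold change of at least 1 and groups that do not overlap were named, with further genes for comparison chosen after their values were seen. Members and lists were chosen with earlier results of these data known. Gene positions are from RefSeq and strands from GENCODE, both GRCm38. The ATAC-seq and CHIP-seq tables are in mm39 per the methods and were not used here, since builds were not mixed (read as GRCm38, 4.20% and 6.32% of their peaks would lie within 1 kb of a gene start). The comparisons planned on them were not run. Same-numbered libraries of the genotypes did not deviate together (correlation over genes −0.0117), so the numbers were not treated as pairs. Python 3.11.15, numpy 2.4.6, pandas 2.3.3 and matplotlib 3.10.9 handled tables and figures.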

Additional observations from a re-analysis of the deposited data

How the results depend on the processing

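The fit was repeated under 12 alternatives. These were another pseudocount or filter, quantile normalization and the median of all genes set to 0. A replicate block, eBayes without trend and each library left out made up the rest. Of 118 estimates for the 10 genes, 116 kept their direction. The exceptions were Egr1 at −0.020 after quantile normalization and Dusp2 at −0.068 without Chd8-/- replicate 1. The filters, the replicate block and eBayes without trend cannot change an estimate, so their part of this count was fixed in advance. Each fit without a library shares the remaining libraries with the main fit. With all 4 libraries, the lowest adjusted p-value of the 10 genes from limma was 0.544, for Dusp1 after quantile normalization. Leaving out a library gave Dusp2 a range from −0.068 to 0.29. The number of the 10 genes lower by a log2 fold change of 1 was 2 when 0.1 TPM was added and between 0 and 2 when a library was left out, with 0 without WT replicate 2 and 2 without WT replicate 1 or Chd8-/- replicate 1. The number higher was between 0 and 1, with 1 without Chd8-/- replicate 2. Over all genes, the counts of 781 higher and 1768 lower became 362 and 690 when 5 TPM were added, and lay between 989 and 1371 and between 1445 and 3104 when a library was left out. A minimum mean of 5 TPM gave 1149 lower, from fewer genes tested, and 2 with an adjusted p-value under 0.05. Without a filter 415 genes had an adjusted p-value under 0.05, 407 of them with a mean under 1 TPM. With the replicate block, 0 genes and 0 of the 10 had an adjusted p-value under 0.05, and 1336 genes in place of 1555 an unadjusted p-value under 0.05. The block changed no call. Where not stated, the cause was not tested. The counts of the other gene lists without each library were added after the data were seen, and the activation list had 2 genes past a log2 fold change of 1 without Chd8-/- replicate 2 or either WT replicate and 1 without Chd8-/- replicate 1.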

Other observations

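Heat shock genes, which respond to stress on protein folding, had a log2 fold change above 0 in 8 of 8 genes tested, with a median of 0.36, and the Chd8-/- pair exceeded the WT pair in 6. Hsp90aa1, an inducible chaperone, had 704.3 and 684.5 TPM in Chd8-/- Tregs, compared with 403.8 and 504.5 TPM in WT (log2 fold change 0.62 ± 0.18 SE, limma adjusted p = 0.447). None passed an adjusted p-value of 0.05 in limma (0 genes), and 1 had an unadjusted p-value under 0.05. Over all genes, 38.5% were above 0, 14.8% had the Chd8-/- pair above the WT pair and 3.9% were higher at that p-value. Hspa1a and Hspa1b, the strongly inducible members, were listed at no more than 0.7 TPM in all 4 libraries. This list too was chosen with earlier results of these data known, so its counts beside those of all genes are a description.

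The early genes Klf4, Ier5l and Srf were, like Ier3, highest in WT library 2, and they were picked after their values were seen. Klf4 was listed at 3.3 TPM there and at no more than 0.4 TPM in the other libraries, Ier5l at 2.0 TPM there and at 0.1 TPM in the others, and Srf at 30 TPM there and at 15.2 to 17.6 TPM in the others. Egr3, Fosl1 and Egr4 were instead highest in WT library 1, at 25.9, 9.5 and 2.4 TPM.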
